A study of Mus musculus with 2 samples.

Results

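The 38 genes described here encode the chaperones and disulfide enzymes of the endoplasmic reticulum (ER), the machinery of ER-associated degradation (ERAD), the sensors of the unfolded protein response, genes of the ATF4 arm and a pair of translocon subunits. They are 38 of the 18193 genes that could be named on the array. They were matched by gene symbol or alias to probe sets naming 1 gene, and the list was chosen on the log2 ratios of these same arrays, in which genes of this response had been seen to be low with *Flcn* siRNA. The values below are therefore a description, and no test is attached to them. RAW264.7, a mouse macrophage line that can form osteoclasts, was transfected with scramble siRNA or with *Flcn* siRNA, which targets the tumor suppressor folliculin. Cells of both conditions grew in RPMI-1640 with 10% FCS. Their medium was changed at 24 hours after transfection, and they were harvested for RNA 48 hours later. RANKL is not named for these samples. Each condition was 1 Affymetrix GeneChip Mouse Genome 430 2.0 array, and the methods give 1 *Flcn* siRNA sequence and 1 control siRNA, so the siRNA sequence, the culture and the array cannot be told apart from the knockdown.

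Proteins that enter the ER are folded there by chaperones such as BiP and by oxidoreductases that form their disulfide bonds, while those that fail to fold are carried back to the cytosol and degraded. When unfolded proteins build up, BiP leaves the sensors IRE1, PERK and ATF6 in the ER membrane. IRE1 then splices *Xbp1* mRNA, ATF6 is cut to free a transcription factor, and PERK slows translation while that of ATF4 goes on, which together raise chaperones, ERAD genes and genes of amino acid supply. Macrophages use this machinery for enzymes and cytokines that they secrete.

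The ERSE, the ER stress response element through which ATF6 is known to act together with the factor NF-Y, reads CCAAT, then 9 bases of any kind, then CCACG. It is shown first because its letters stood in a larger share of these promoters than of all promoters. The 38 genes were listed as genes of the response in which this element is known to act. The larger share is therefore no independent finding, and it was not tested. Promoters of 300 bases, from 250 bases before to 50 bases after the gene start, were taken from RefSeq (GRCm38.p6), and 33 of the 38 genes had one. *Manf*, *Hyou1*, *Derl1*, *Atf6* and *Sec61a1* had no entry. The ERSE letters were found on either strand in 10 of the 33 genes, or 30.3%, against 0.137% of 27025 genes with a promoter in the table and 0.119% of its 32851 promoters. They lay 25 to 193 bases before the gene start, and *Hsp90b1* held them at a pair of sites that do not overlap. Each site is printed 5′ to 3′ on the strand where it reads CCAAT first, with 5 bases on either side, and the capitals mark CCAAT and CCACG.
Creld2, chr15:88819515-88819543, minus strand: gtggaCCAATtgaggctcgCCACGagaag
Dnajc3, chr14:118937822-118937850, plus strand: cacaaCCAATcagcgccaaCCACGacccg
Syvn1, chr19:6046527-6046555, plus strand: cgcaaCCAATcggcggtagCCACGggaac
Ero1lb, chr13:12565677-12565705, minus strand: ggcggCCAATgaggcgggaCCACGaggcc
Pdia6, chr12:17266486-17266514, plus strand: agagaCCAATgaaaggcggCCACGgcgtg
Calr, chr8:84847070-84847098, plus strand: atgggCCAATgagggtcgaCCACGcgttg
Hspa5, chr2:34772020-34772048, plus strand: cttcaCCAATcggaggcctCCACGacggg
Hsp90b1, first site, chr10:86705633-86705661, minus strand: caagcCCAATcgcaaggagCCACGcttcg
Hsp90b1, second site, chr10:86705528-86705556, plus strand: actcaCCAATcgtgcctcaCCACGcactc
Canx, chr11:50325795-50325823, minus strand: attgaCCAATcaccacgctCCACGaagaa
Derl3, chr10:75893237-75893265, minus strand: gctagCCAATggggaagtcCCACGgtaga

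The promoter of *Creld2*, which had the lowest ratio of the 38 genes, is shown as the 250 bases before its gene start, chr15:88819396-88819645 on the plus strand of GRCm38.p6. Its GC content was 66.0%, and the ERSE lies on the other strand here, so the capitals read CGTGG and ATTGG.
Creld2 promoter: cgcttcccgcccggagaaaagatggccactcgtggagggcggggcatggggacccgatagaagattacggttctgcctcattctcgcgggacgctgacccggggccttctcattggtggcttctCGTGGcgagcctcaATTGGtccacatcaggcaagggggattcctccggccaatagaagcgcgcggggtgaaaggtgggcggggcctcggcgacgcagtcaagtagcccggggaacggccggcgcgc

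With *Flcn* siRNA nearly all of these genes gave a lower signal. Of the 38 genes, 37 passed the signal filter, a geometric mean signal of at least 13.2 over both arrays. At the brightest probe set of each gene, 35 of the 37 had a log2 ratio (*Flcn* over scramble siRNA) below 0, and 19 were lower by 1.5-fold or more, the size at which a gene was called. None was higher by as much. Over all 10285 genes above the filter, 48.1% lay below 0, 5.54% were lower and 5.84% were higher by 1.5-fold or more. With each array divided by its own median signal the split over all genes shifted to 417 higher and 807 lower, from 601 higher and 570 lower, and the ER genes lower by 1.5-fold or more came to 20. The median log2 ratio of the 37 genes was -0.60 against 0.01 over all genes, and 540 of the 10285 genes lay at or below that median. Nearest to the 1.5-fold limit, *Trib3* was 1.51-fold lower and was called, and *Ero1l* was 1.48-fold lower and was not. Since the genes were chosen on this comparison, these counts show only how the list was drawn. In bulk RNA, fewer cells of a kind and less RNA per cell cannot be told apart.

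The trimmed mean signal, without the top and bottom 2% of probe sets, was 100 on both arrays, and the median signals were 12.8 with scramble siRNA and 13.6 with *Flcn* siRNA. *Flcn* itself had signals of 241 and 206 at its brighter probe set and 209 and 145 at another, with scramble and *Flcn* siRNA respectively, and did not reach 1.5-fold at either. *Gpnmb*, a known target of the transcription factor Tfe3, had 294 with scramble and 2500 with *Flcn* siRNA. The macrophage label was checked on marker genes, and 10 of 11 macrophage markers were above the filter, with a summed signal of 27759 and 26967, against 1 of 6 fibroblast, 1 of 6 epithelial and 0 of 5 lymphocyte markers, whose summed signals lay between 7.5 and 51.9. The macrophage marker *Fcgr1*, an Fc receptor, was lower, with 1033 and 380. As a sign of RNA quality, the 3′ to 5′ signal ratio of the control probe sets was 1.44 with scramble and 1.34 with *Flcn* siRNA at *Actb*, and 0.846 and 0.797 at *Gapdh*. Signals depend on the probes, so apart from these marker sums, which cover different numbers of genes, they are compared between arrays only.

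**Figure D1:**
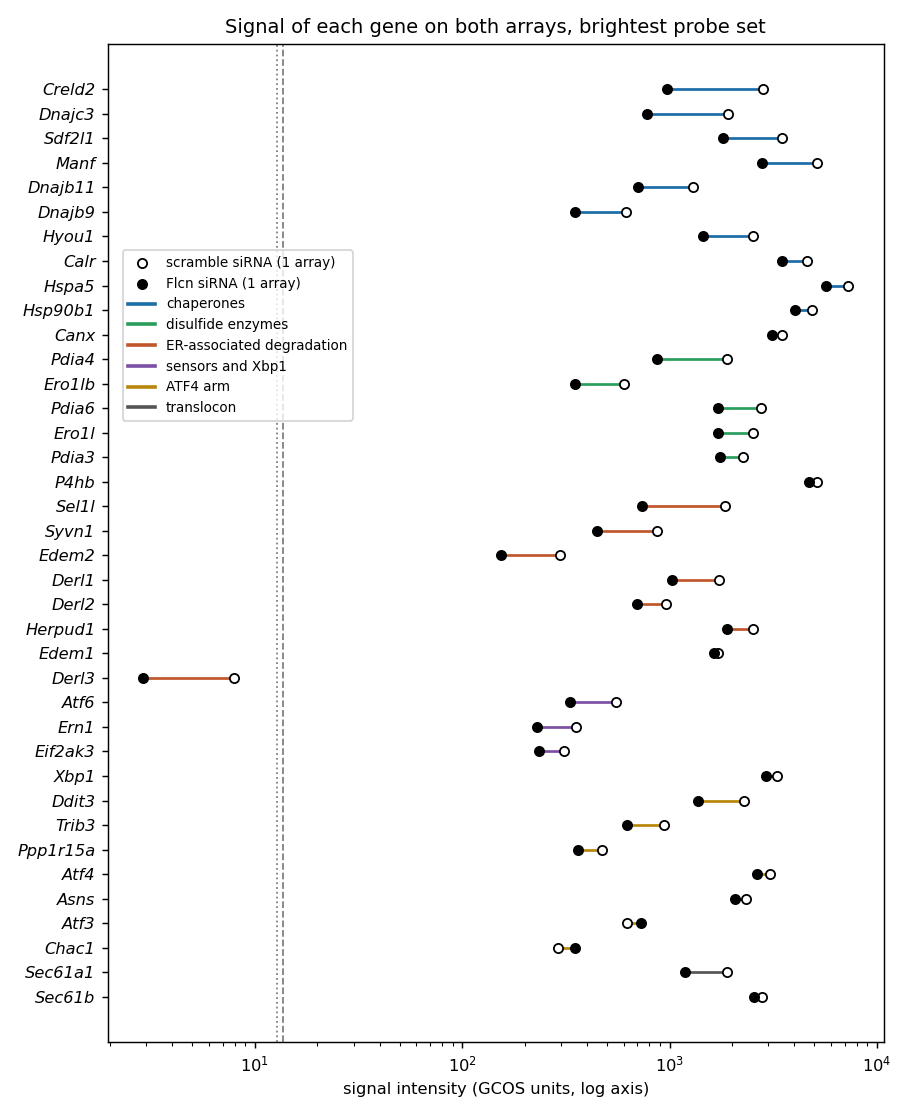
Signal intensity of each of the 38 genes at its brightest probe set on the scramble siRNA array (open circles) and the Flcn siRNA array (filled circles), on a log axis, with lines coloured by role and the median signal of each array as a dotted (scramble) and a dashed (Flcn) vertical line. The filled circle lies to the left of the open one for each gene but Atf3 and Chac1, and Derl3 alone lies under both medians.

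The chaperones and their cofactors lay below 0 at 11 of 11 genes, with a median log2 ratio of -0.83, and 7 were lower by 1.5-fold or more. *Creld2*, a secreted ER protein induced by ER stress, had a signal of 2812 with scramble siRNA and 971 with *Flcn* siRNA, a log2 ratio of -1.53 or 2.90-fold lower. It was the 17th lowest of the 10285 genes. *Dnajc3*, the J protein p58IPK that inhibits PERK and helps BiP, had 1914 and 774 at its brightest probe set, a log2 ratio of -1.31. Its 5 probe sets lay close together, from -1.40 to -1.26. *Sdf2l1*, a partner of BiP and of ER J proteins, had 3503 and 1820 (-0.94). *Manf*, a secreted factor that binds BiP, had 5167 and 2807 (-0.88). *Dnajb11*, the J protein ERdj3, had 1295 and 706 (-0.87). *Dnajb9*, the J protein ERdj4, had 618 and 348 (-0.83). Each of these genes was thus lower by more than 1.5-fold, at 1 probe set apiece except for *Dnajc3*. *Hyou1*, which exchanges the nucleotide of BiP, had 2512 and 1456 (-0.79), and its other probe sets lay lower, at -1.16 and -1.22.

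The other 4 chaperones had log2 ratios nearer to 0 at the probe set used. *Hspa5*, which encodes BiP, had 7278 with scramble and 5706 with *Flcn* siRNA, a log2 ratio of -0.35. Another bright probe set of *Hspa5* had 5952 and 3879 (-0.62), and a much dimmer one had 165 on both arrays (-0.0035). *Hsp90b1*, the ER member of the Hsp90 family, had 4851 and 4036 (-0.27), with -0.44 at its other probe set. *Calr*, the lectin chaperone calreticulin, had 4583 and 3472 (-0.40), and its 3 probe sets lay between -0.53 and -0.40. The membrane-bound relative of calreticulin, calnexin, showed the smallest difference of the chaperones at the probe set used. Its gene *Canx* had 3488 and 3103, a log2 ratio of -0.17, with -0.11 at another probe set and -0.48 at a much dimmer one. Of the chaperones, *Hspa5*, *Hsp90b1*, *Calr* and *Canx* were the 4 that did not reach 1.5-fold at the probe set used, and *Hspa5* did so at another.

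The disulfide enzymes lay below 0 at 6 of 6 genes, with a median log2 ratio of -0.62. *Pdia4*, a large protein disulfide isomerase, had 1887 with scramble and 867 with *Flcn* siRNA, a log2 ratio of -1.12 or 2.18-fold lower. *Pdia6*, an isomerase that associates with BiP, had 2748 and 1711 (-0.68), but 43.1 and 44.7 at a dimmer probe set (0.05). *Pdia3*, the partner of calnexin and calreticulin, had 2254 and 1759 (-0.36), with -0.92 at a dim probe set. The isomerases therefore spread widely. *P4hb*, the classical protein disulfide isomerase, had 5164 and 4727, a log2 ratio of -0.13. The oxidases that reload these isomerases were *Ero1l* (symbol now *Ero1a*), with 2526 and 1712 (-0.56), and *Ero1lb* (now *Ero1b*), with 606 and 351 (-0.79). The 3 probe sets of *Ero1l* lay between -0.56 and -0.40, where none reached 1.5-fold and only the brightest came close to it. The other probe set of *Ero1lb* above the filter had -0.34.

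Genes of ERAD lay below 0 at 7 of 7 measured genes, with a median log2 ratio of -0.75, and 4 were lower by 1.5-fold or more. *Sel1l*, the adaptor of the ubiquitin ligase in the ER membrane, had 1844 with scramble and 736 with *Flcn* siRNA, a log2 ratio of -1.33 or 2.51-fold lower. Its 5 probe sets lay between -1.33 and -1.18. *Syvn1*, which encodes that ligase, Hrd1, had 872 and 446 (-0.97), with -0.78 at its other probe set. The ligase and its adaptor were thus lower by 1.5-fold or more at all of their probe sets. *Derl1*, a channel-like protein of the same complex, had 1725 and 1023 (-0.75), and its 4 probe sets lay between -0.83 and -0.64. *Derl2*, its relative, had 966 and 699 (-0.47), with -0.60 at its other probe set. *Edem2*, which trims mannose to mark glycoproteins for degradation, had 295 and 154 (-0.94). *Edem1*, of the same family, could not be placed by a single value, since its brighter probe set had 1721 and 1630 (-0.08) and its dimmer one 1520 and 845 (-0.85). *Herpud1*, a ubiquitin-like membrane protein, had 2530 and 1900 (-0.41), with -0.35 at its other probe set. *Derl3*, the third derlin, had 7.9 and 2.9, under the median of both arrays, so no ratio is given.

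The sensors lay below 0, but their probe sets disagreed more than those of the chaperones. *Atf6* had 550 with scramble and 330 with *Flcn* siRNA at its brightest probe set, a log2 ratio of -0.73, and -0.44 and 0.15 at others. *Ern1*, which encodes IRE1, had 354 and 230 (-0.62), and its other probe sets above the filter lay at -0.82 and -0.04. *Eif2ak3*, which encodes PERK, had 311 and 236 at the single probe set above the filter (-0.40). None of the sensors was therefore lower by 1.5-fold at all of its probe sets. *Xbp1*, the transcript that IRE1 splices, had 3293 and 2910, a log2 ratio of -0.18. Its 4 probe sets ranged from -0.37 to 0.09, and these signals do not separate the spliced from the unspliced form. At the translocon, the channel through which proteins enter the ER, *Sec61a1* had 1884 and 1187 (-0.67), with all 6 probe sets below 0 and the one nearest to 0 at -0.33, whereas *Sec61b* had 2794 and 2543 (-0.14).

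The ATF4 arm had a median nearer to 0, and at the brightest probe set it held the only genes above 0. Its median log2 ratio was -0.21 over 7 genes, against -0.68 over the other 30 measured genes, a difference that was not tested. *Atf4* itself had 3065 with scramble and 2647 with *Flcn* siRNA (-0.21), with -0.44 at its other probe set. *Ddit3*, which encodes the transcription factor CHOP, had 2290 and 1375 (-0.74), and its dimmer probe set had 183 and 110, again -0.74. *Trib3*, a pseudokinase induced by ATF4 and CHOP, had 943 and 623 (-0.60), with -0.67 at its other probe set. These were the members of the arm lower by 1.5-fold or more. *Ppp1r15a*, or GADD34, which helps to restore translation through the dephosphorylation of eIF2α, had 473 and 362 (-0.39). *Asns*, which makes asparagine, had 2348 and 2070 (-0.18), with -0.32 at its other probe set. *Atf3*, a stress-induced transcription factor, had 624 and 725, a log2 ratio of 0.22. *Chac1*, which breaks down glutathione, had 289 and 350, a log2 ratio of 0.27. *Atf3* and *Chac1* had 1 probe set each, did not reach 1.5-fold, and stayed above 0 with median scaling and quantile normalization.

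**Figure D2:**
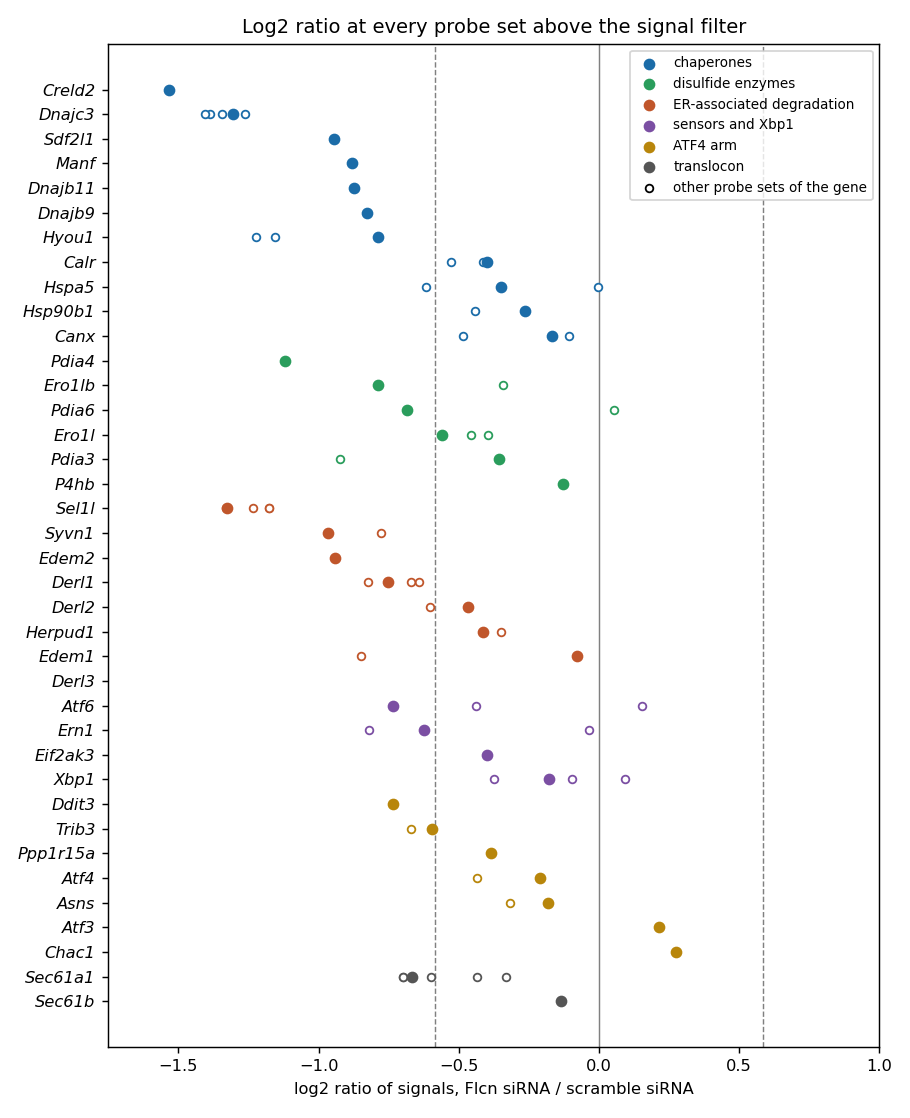
Log2 ratio (Flcn over scramble siRNA) at each probe set above the signal filter, by gene, from 1 array per condition; filled circles mark the brightest probe set, which was used for the gene, and dashed lines mark 1.5-fold. Of 82 probe sets 77 lie below 0, those of Dnajc3 and Sel1l lie close together between -1.40 and -1.18, and those of Edem1, Atf6, Ern1 and Pdia6 lie far apart.

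Agreement between probe sets of a gene was the only check of a value that these arrays allowed, and it measures technical spread within a hybridization, not replicate error. For 24 genes 2 or more probe sets passed the filter, and 21 of them lay below 0 at each probe set. In 7 of the 24, all were lower by 1.5-fold or more, namely *Dnajc3*, *Hyou1*, *Syvn1*, *Sel1l*, *Derl1*, *Ddit3* and *Trib3*. In a further 9 some but not all were. The genes with a probe set above 0 were *Pdia6*, *Xbp1* and *Atf6*. Between the probe sets of 1 gene, the log2 ratio had an SD with a median of 0.14 over the 24 genes and 0.19 over the 5034 such genes on the array. At the brightest probe set, differences such as those of *Canx*, *P4hb*, *Sec61b*, *Xbp1* and *Asns*, between -0.18 and -0.13, were thus close in size to these SDs. Those of *Creld2*, *Dnajc3*, *Sel1l* and *Pdia4* exceeded 2-fold.

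Genes of the same organelle that are not among the 38 were set beside them by their counts and medians. Over all genes above the filter, 48.1% lay below 0 and 5.54% were lower by 1.5-fold or more. Of 32 measured other ER folding genes, 26 lay below 0 and 9 were lower by 1.5-fold or more, or 6 with the mean of all probe sets, with a median log2 ratio of -0.36. The lowest were *Fkbp11*, an ER prolyl isomerase, with 317 and 176 (-0.85, with -0.28 at its other probe set), *Pdia5*, an isomerase, with 268 and 154 (-0.79), and *Txndc11*, a thioredoxin-domain protein (-0.76, with 0.25 at its other probe set). The highest were *Tmx2* (0.35), *Cnpy3*, a chaperone of Toll-like receptors (0.31), and *Cnpy4* (0.08), the last of which lay below 0 with median scaling. Genes of the translocon, the signal recognition particle and the signal peptidase lay below 0 at 20 of 20 measured genes, with a median of -0.35, and 2 were lower by 1.5-fold or more. They were *H13*, the signal peptide peptidase, with 1188 and 655 (-0.86, with -0.41 at its highest probe set), and *Ssr3*, a subunit of the translocon-associated complex, with 2464 and 1563 (-0.66). *Spcs3*, a signal peptidase subunit, had -0.58, and nearest to 0 were *Spcs1* (-0.12, with 0.36 at another probe set), *Ssr1* (-0.07, with -0.94 at another probe set) and *Sec62* (-0.01). With the mean of all probe sets 18 of these 20 lay below 0. With median scaling 5 were lower by 1.5-fold or more, and with unique probe sets the median was -0.20 over 16 genes.

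Among 29 measured other ERAD genes, 23 lay below 0 and 4 were lower by 1.5-fold or more, with a median log2 ratio of -0.25. *Selenos*, a selenoprotein of the Hrd1 complex, had 2163 and 1227 (-0.82), and *Selenok*, another selenoprotein of the ER membrane, had 2055 and 1279 (-0.68). *Erlin1*, which guides receptors to degradation, had 823 and 542 (-0.60, with -0.34 at its other probe set). The highest were the ubiquitin ligase *Rnf5* (0.42), the conjugating enzyme *Ube2j2* (0.28) and the ligase *Marchf6* (0.04, below 0 with median scaling). Other targets of ATF4 had a median of -0.21, with 30 of 37 below 0 and 3 lower by 1.5-fold or more, a share near that over all genes. They were *Wars*, a tRNA synthetase, with 673 and 359 (-0.91), *Cth*, an enzyme of cysteine synthesis, with 620 and 336 (-0.88), and the transcription factor *Atf5*, with 473 and 304 (-0.64). The highest were *Yars*, also a tRNA synthetase (0.50), *Ddit4*, an inhibitor of mTORC1 (0.44), and *Stc2* (0.29, with -0.09 at its lowest probe set).

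Other stress sensors and genes acting on eIF2 lay on both sides of 0, at 13 below and 10 above, with a median log2 ratio of -0.13. This split moved with the scaling, to 18 below and 5 above with a median of -0.22 under median scaling. *Wfs1*, an ER membrane protein, had 61.6 and 21.9 (-1.49), *Creb3l2*, an ER-anchored transcription factor, had 117 and 60.3 (-0.95), and *Map3k5*, the kinase ASK1, had 247 and 144 (-0.78). At the other end were *Creb3l1*, with a weak signal of 14.5 and 24.8 (0.77), *Eif2b1*, a subunit of the exchange factor of eIF2, with 146 and 230 (0.65), and *Eif2ak4*, which encodes the kinase GCN2 (0.43). Genes of N-linked glycosylation, the neighbouring ER pathway, had a median of -0.16, with 28 of 42 below 0. Of them 3 were lower by 1.5-fold or more, or 7.14%, a share near the 5.54% over all genes. *Gfpt1*, which makes hexosamines, had 1513 and 839 (-0.85, with -0.03 at another probe set), *Uap1*, which makes UDP-GlcNAc, had 710 and 416 (-0.77), and the mannosyltransferase *Alg12* had 182 and 109 (-0.74). Their highest members were *Pmm1* (0.50), *Dolk* (0.42) and *Alg8* (0.30).

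Chaperones of the cytosol did not follow those of the ER. Of 36 measured genes, 26 lay above 0 and 10 below, with a median log2 ratio of 0.17, or 0.08 with median scaling. By 1.5-fold or more, none was lower and 2 were higher. Over all genes 5.54% were lower and 5.84% higher by as much, so the share of higher genes was near that over all genes. The calls rested on the probe sets, since with unique probe sets, which left 29 genes, 1 was lower and none was higher by as much. *Hsph1*, the exchange factor Hsp110, had 334 with scramble and 562.4 with *Flcn* siRNA (0.75). *Hspb1*, a small heat shock protein, had 14.1 and 23.5 (0.74), close to the median signal. *Stip1*, which links Hsp70 and Hsp90, had 318 and 473 (0.58), just short of 1.5-fold. The lowest were *Hspa4l* (-0.41), *Dnajc7* (-0.29) and *Bag3* (-0.27). With 1 array per condition the difference between the ER and the cytosolic genes has no replicate check, and no test of it was run.

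**Figure D3:**
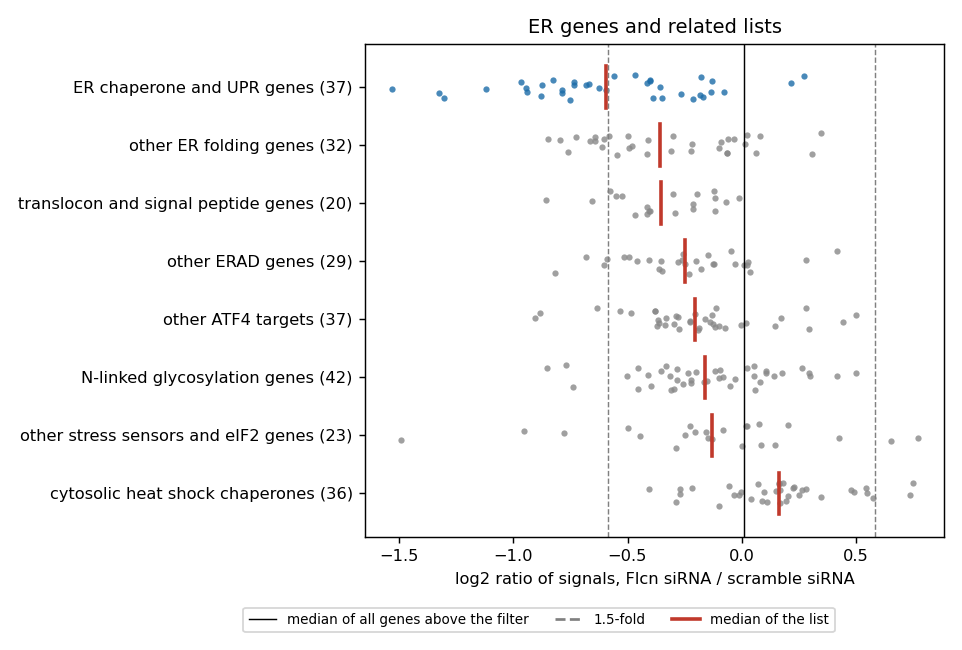
Log2 ratio (Flcn over scramble siRNA) of single measured genes, for the ER chaperone and unfolded protein response genes (blue) and of related lists (grey), with the number of genes in parentheses, from 1 array per condition; red bars are list medians, the black line is the median of all genes above the filter, and dashed lines mark 1.5-fold. The red bars run from -0.60 for the ER chaperone and unfolded protein response genes to 0.17 for the cytosolic heat shock chaperones.

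The promoter letters shown above were set beside the array values. Of the 10 genes with the ERSE letters 9 were measured, and they lay between -1.53 (*Creld2*) and -0.17 (*Canx*), with a median log2 ratio of -0.68 and 5 lower by 1.5-fold or more. The 23 measured genes whose promoter window lacked those letters lay between -1.33 (*Sel1l*) and 0.27 (*Chac1*), with a median of -0.41 and 9 lower by as much. Both sets overlapped over most of their range, so the letters do not separate the lower genes from the rest. No other ER folding gene held them, of 27 with a promoter, and none of 35 cytosolic heat shock chaperones did. The ERSE letters were held by 37 genes in all. Of the 27 outside the list, 10 could be named on the array and 2 were above the signal filter, *Alg12* (-0.74) and *Pan2*, a subunit of a deadenylase (-0.08).

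A shorter relative, ERSE-II, which reads ATTGG, 1 base of any kind and CCACG, was found in *Herpud1* and *Dnajb11* and in 0.0444% of all genes. The CARE, the element through which ATF4 and CHOP are known to act, was searched as TT, 1 base of any kind and CATCA. It was found in 5 of 33 genes, *Herpud1*, *Trib3*, *Atf3*, *Chac1* and *Asns*, or 15.2% against 4.51% of all genes, and in 9 of 30 other ATF4 targets. These sites are shown because they include both genes above 0 at the brightest probe set, with 5 bases on either side and capitals for the letters searched.
Herpud1 CARE, chr8:94386312-94386329, plus strand: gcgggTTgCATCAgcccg
Trib3 CARE, chr2:152344034-152344051, minus strand: caggtTTaCATCAgccgg
Atf3 CARE, chr1:191183431-191183448, minus strand: cgcacTTgCATCAccaag
Chac1 CARE, chr2:119351044-119351061, plus strand: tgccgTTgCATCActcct
Asns CARE, chr6:7693220-7693237, plus strand: ggaagTTtCATCAtgtgg
Herpud1 ERSE-II, chr8:94386372-94386392, plus strand: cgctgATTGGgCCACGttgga

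The 5 genes with the CARE letters had a median log2 ratio of -0.18, from -0.60 (*Trib3*) to 0.27 (*Chac1*), and the 27 other measured genes with a promoter had -0.56. All of the 5 but *Herpud1* belong to the ATF4 arm, so this difference is not separate from that of the arm given above, and it was not tested. The CARE letters of *Trib3* and the ERSE-II letters of *Dnajb11* lie after the gene start. The core of the UPRE, TGACGTGG, to which XBP1 binds, was in none of the 33 promoters and in 0.714% of all genes. The E-box CACGTG, which Tfe3 and its relatives bind, was in *Dnajb9*, *Calr* and *Derl3*, or 9.09% against 8.09% of all genes. A match is a string of letters and no measured binding, and a promoter without one says only that these letters are not in its window.

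**Figure D4:**
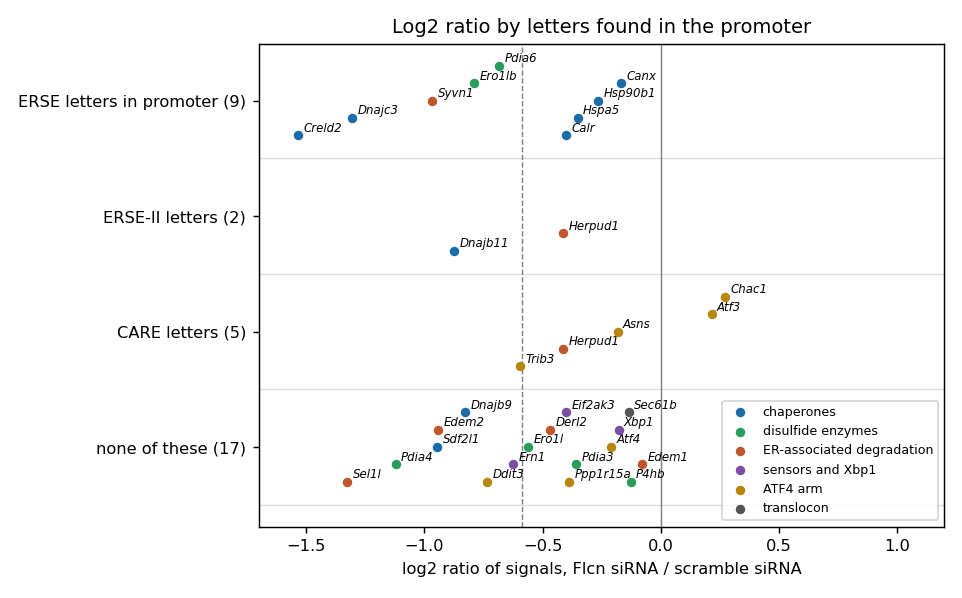
Log2 ratio (Flcn over scramble siRNA) from 1 array per condition, for the measured genes with a RefSeq promoter, grouped by the letters found in it and coloured by role (vertical position within a group carries no value), with the number of genes in parentheses and a dashed line at 1.5-fold lower; Herpud1 appears in both the ERSE-II and the CARE group. Genes with the ERSE letters spread from -1.53 to -0.17, those with the CARE letters from -0.60 to 0.27, and the 17 with none of these from -1.33 to -0.08.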

How the data were processed

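RNA of RAW264.7 cells was hybridized to 1 Affymetrix Mouse Genome 430 2.0 array per condition. The values deposited by the authors were linear signal intensities from GCOS 1.0. The scaling target is not given in the sources used here. The table held 45101 probe sets, of which 64 were controls, 34945 named 1 gene through the platform annotation, 932 named several and 9160 were not listed. RefSeq symbols (GRCm38.p6) were found for 34741 of those with 1 gene. The probe set brightest by geometric mean over both arrays stood for a gene. After raising values below an array's median to that median, the log2 ratio (*Flcn* over scramble siRNA) was taken, and genes with a geometric mean of at least 13.2 were kept. A gene was called by size, at 1.5-fold. With 1 array per condition there was no test, and precision is limited by this number.

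The 38 genes and the related lists were chosen with earlier results of these data known. The genes named in the text are all 38, *Flcn* and *Gpnmb*, and the 3 highest and 3 lowest measured genes of each related list; *Pan2* and the marker *Fcgr1* were named for their part in a count or a marker list. Some list genes are not analysed here, and neither are protein sequences. Promoters were searched on both strands, with overlapping matches kept. The ratio and the motif search were tested on simulated data. The alternatives were other scalings, probe set choices, floors, filters and a call at 2-fold. Python 3.11.15, numpy 2.4.6, pandas 2.3.3 and matplotlib 3.10.9 were used.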

Additional observations from a re-analysis of the deposited data

How the results depend on the processing

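The number of ER chaperone and unfolded protein response genes lower by 1.5-fold or more was 15 to 20 over the scalings, probe set choices, floors and filters, and 4 at 2-fold, when 113 of all genes were lower and 87 were higher. None was higher by 1.5-fold in any setting. Of the 19 called lower, 14 stayed so in each setting that gave a value, and *Pdia6*, *Ero1lb*, *Atf6*, *Ern1* and *Sec61a1* did not. With the mean of all probe sets the median log2 ratio was -0.49 over all the measured ER genes, -0.52 over the disulfide enzymes and -0.32 over the ATF4 arm. That of the ERAD genes was -0.64 with unique probe sets, and -0.61 with no filter, which adds *Derl3*. Unique probe sets left 32 of the genes and gave *Xbp1* 0.09. A filter at the 75th percentile left 268 of all genes lower and 212 higher. Of 328 values of single genes under the alternatives, 9 moved by more than the usual SD between probe sets, 4 of them down and 5 up. The other floors and filters left the value of each gene unchanged, and a gene with 1 probe set cannot change with the choice of probe set. Many of the 328 values could therefore not move, and the count is no measure of stability. No paired analysis was possible because each condition had 1 array.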

Other observations

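A list of genes of transport between the ER and the Golgi, written after the values above were seen, lay mostly below 0. Of 35 measured genes, 32 had a log2 ratio below 0 and 5 were lower by 1.5-fold or more, with a median of -0.29. These were 91.4% and 14.3%, against 48.1% and 5.54% over all genes. *Sec24d*, a cargo adaptor of COPII vesicles, had a signal of 666 with scramble siRNA and 253 with *Flcn* siRNA, a log2 ratio of -1.40. *Tmed9*, a cargo receptor, had 1240 and 642 (-0.95, with -0.09 at another probe set). *Surf4*, which exports soluble cargo, had 912 and 532 (-0.78), and its 5 probe sets lay between -1.13 and -0.44. The highest were *Sec13*, a COPII coat subunit (0.09), and *Sar1a*, the GTPase that starts COPII assembly (0.10, with -0.46 at another probe set), besides *Copz2*, which was under the median signal with scramble siRNA.

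Chaperones and proteases of mitochondria, listed at the same time, lay on both sides of 0, at 9 genes above and 7 below, and their median over 16 was 0.03 on the log2 scale, or -0.06 with median scaling. *Lonp1*, a matrix protease that PERK signalling is known to raise, had 1425 with scramble and 835 with *Flcn* siRNA (-0.77), while *Htra2*, a protease of the intermembrane space, had 369 and 491 (0.41). *Hspa9*, the matrix Hsp70, had 3518 and 2716 (-0.37) and *Dnaja3* had -0.30. *Trap1*, the mitochondrial Hsp90, had 0.32 and the protease subunit *Clpp* had 0.28. These lists have no replicate check, and no explanation was tested.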
